A study of Mus musculus with 6 samples.

Results

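Zfp is the mouse symbol prefix for zinc finger proteins, and 195 protein-coding genes that carry it were read in thymocytes at an average of at least 10 CPM, the read count scaled to a common library total. They were chosen by that level from 367 protein-coding Zfp genes in a table of 29626 genes, and the other 172 lay under 10 CPM. The prefix is a naming rule and not a protein family, so it also takes in Zfpl1, whose symbol puts a letter between the prefix and the number. RNA came from flow-sorted thymus cells positive for both CD4 and CD8 (DP thymocytes) of mice aged 8 weeks. The 3 KANSL1-deficient mice were Kansl1fl/fl CD4-Cre, in which Cre driven by the Cd4 gene acts in the T cell lineage. The 3 control mice were Kansl1fl/fl littermates without Cre, given as WT in the genotype label. Both groups carried the floxed Kansl1 gene, and the Cre transgene was present in the KANSL1-deficient mice alone, so its own effect cannot be told apart from that of Kansl1 loss. KANSL1 is a scaffold of the NSL complex, which holds the histone acetyltransferase KAT8.

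Most Zfp proteins carry rows of C2H2 zinc fingers, small folds held by a zinc ion that each contact a few bases of DNA. Many also carry a KRAB domain, which recruits TRIM28 and, through it, the histone methyltransferase SETDB1 and heterochromatin proteins. KRAB zinc finger genes lie in clusters that grew by duplication, and many of their proteins bind transposable elements. Other Zfp proteins act on promoters without a KRAB domain, and a few bind RNA, such as the Zfp36 family that shortens the life of mRNAs with AU-rich elements.

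The libraries held between 20603137 and 22459830 counts in KANSL1-deficient mice and between 19361968 and 21975201 counts in control mice. Levels below are CPM scaled by TMM factors, which correct for differences in library composition, and were 0.932 to 0.971 in KANSL1-deficient and 1.04 to 1.07 in control libraries. Kansl1 itself averaged 167 ± 21.3 CPM in KANSL1-deficient and 211 ± 20.8 CPM in control libraries (SD, n = 3 each). The log2 fold change of -0.33 ± 0.14 (SE) did not pass the quasi-likelihood test (Benjamini-Hochberg adjusted p = 0.171 by edgeR). The exact permutation test, two-sided, gave p = 0.1, the lowest possible for 3 against 3 libraries, and whole-gene counts do not separate the deleted part. The defining DP markers were abundant in both groups, with Cd4 at 2441 ± 182 CPM in KANSL1-deficient and 2024 ± 226 CPM in control libraries and Rag1 at 3205 ± 121 CPM in KANSL1-deficient and 3030 ± 239 CPM in control libraries. Of the markers of other cells, Pax5, Foxp3 and Foxn1 had at most 3 reads per group, while other genes on such lists were abundant and higher. Gata3, on the CD4 single-positive list, averaged 226 ± 27.9 CPM in KANSL1-deficient and 123 ± 15.3 CPM in control libraries (edgeR adjusted p = 0.00644), and Ikzf2, on the regulatory T cell list, 202 ± 8.79 CPM in KANSL1-deficient and 122 ± 13.9 CPM in control libraries (edgeR adjusted p = 0.00829). The 4 regulatory T cell markers summed to between 257 and 304 CPM in KANSL1-deficient and between 177 and 190 CPM in control libraries. The 6 CD4 single-positive markers summed to between 255 and 300 CPM in KANSL1-deficient and between 144 and 170 CPM in control libraries. For the 7 stroma markers the sums were between 195 and 239 CPM in KANSL1-deficient and between 142 and 208 CPM in control libraries. Most of that stroma sum was Pecam1, at 213 ± 27.7 CPM in KANSL1-deficient and 167.5 ± 33.0 CPM in control libraries (edgeR adjusted p = 0.233). Epcam averaged 9.56 CPM in KANSL1-deficient and 8.41 CPM in control libraries, and the remaining stroma markers were lower still. Ighm, on the B cell list, was higher, at 472 ± 40.1 CPM in KANSL1-deficient and 282 ± 61.5 CPM in control libraries, and the summed myeloid markers stayed at or under 15.3 CPM in every library. The part of these markers in the results was not tested. All 10 mitosis markers were higher, and they summed to between 738 and 907 CPM in KANSL1-deficient and between 180 and 334 CPM in control libraries.

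At an adjusted p under 0.05, 6 of the 195 Zfp genes were higher in KANSL1-deficient cells and 7 were lower, all with libraries that did not overlap between the groups. The genes that rose were Zfp367, Zfp874b, Zfp39, Zfp266, Zfp260 and Zfp62, and those that fell were Zfp995, Zfp772, Zfp623, Zfp61, Zfp579, Zfp715 and Zfp709. Together they are 6.67% of the Zfp genes, against 6.76% of the 15353 genes tested, and 10.6% of the 7796 protein-coding genes of at least 10 CPM. The count of Zfp genes that passed is thus near the background and is no result about the group. In single directions the backgrounds were 3.85% higher and 2.91% lower. All 195 Zfp genes passed the filter on low counts. By the Wald test of DESeq2 10 were higher and 22 lower, on a background of 7.1% higher and 6.19% lower. Leaving out KANSL1-deficient replicate 1, 2 or 3 left 1, 0 and 2 Zfp genes higher and 2, 3 and 4 lower. Those fits called 283, 305 and 525 of all genes, against 1038 with every library. Leaving out control replicate 1, 2 or 3 left 2, 1 and 3 Zfp genes higher and 8, 4 and 3 lower, with 811, 339 and 697 of all genes called. In bulk RNA, fewer cells of a type and less RNA per cell cannot be told apart.

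Zfp995 fell most. It is a KRAB zinc finger gene (ENSMUSG00000078546) on GRCm39 chr17:22098551-22128907, with no further role named in the files. It was read at 6.59, 7.64 and 6.21 CPM in KANSL1-deficient replicates 1 to 3 and at 16.2, 18.7 and 16.1 CPM in control replicates 1 to 3. The log2 fold change was -1.32 ± 0.24 (SE, edgeR adjusted p = 0.00872). Every KANSL1-deficient library lay far below the lowest control library. Zfp995 met the 10 CPM rule through the control libraries, as its mean was 6.81 CPM in KANSL1-deficient and 17.0 CPM in control libraries. This was the one Zfp gene that passed under all 18 alternative settings.

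Zfp579 (ENSMUSG00000051550, chr7:4986482-4999157) has no KRAB annotation and was also lower. Its level was 23.8, 17.4 and 18.9 CPM in KANSL1-deficient libraries, against 40.05, 40.01 and 38.5 CPM in control libraries. The control libraries lay close together and far above the others, and the log2 fold change was -0.98 ± 0.18 (SE, adjusted p = 0.0112). Zfp715, a KRAB gene at chr7:42945621-42962718, was read at 21.1, 25.4 and 26.3 CPM in KANSL1-deficient cells and at 40, 45.4 and 51.5 CPM in control cells (log2 fold change -0.91 ± 0.18, adjusted p = 0.0139). The highest KANSL1-deficient library was again well under the lowest control library.

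For the other 4 genes that fell, the control libraries were more spread. The KRAB gene Zfp772 (chr7:7205116-7212997) had 13.9, 11.3 and 8.71 CPM in KANSL1-deficient and 15.2, 32.5 and 29.2 CPM in control libraries, with a log2 fold change of -1.18 ± 0.30 (SE, adjusted p = 0.0346). Control replicate 1 sat near the KANSL1-deficient values and far from the other control libraries. Zfp623 (chr15:75812801-75821249) averaged 18.4 ± 3.06 CPM in KANSL1-deficient and 36.7 ± 9.01 CPM in control libraries (SD, n = 3 each, edgeR adjusted p = 0.0234). The KRAB gene Zfp61 (chr7:23990464-24000657) had means of 12.4 ± 3.61 CPM in KANSL1-deficient and 24.6 ± 4.91 CPM in control cells (edgeR adjusted p = 0.0403). Zfp709, another KRAB gene (chr8:72635863-72649571), had means of 10.97 ± 2.26 CPM in KANSL1-deficient and 20.3 ± 3.52 CPM in control cells (edgeR adjusted p = 0.0492). Zfp709 lost its call whichever library was left out, Zfp772 passed in 1 of 6 such fits, and Zfp623 and Zfp61 in 2 of 6.

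Among the genes that rose, Zfp367 changed most. It encodes a zinc finger factor first studied in human erythroid cells as ZFF29 (ENSMUSG00000044934, chr13:64280832-64301016). Its level was 26.2, 29.6 and 23.2 CPM in KANSL1-deficient libraries and 11.8, 13.8 and 9.24 CPM in control libraries. Each KANSL1-deficient value exceeded the highest control value by a wide margin, and the log2 fold change was 1.18 ± 0.22 (SE, adjusted p = 0.0114). Zfp367 and Zfp579 each passed in 17 of 18 settings and missed only without KANSL1-deficient replicate 2. Zfp367 was higher in the same group as the mitosis markers, whose sums are given above. Within the groups the order differed. The mitosis sum was highest in KANSL1-deficient replicate 3, where Zfp367 was lowest of that group, and in control replicate 1, where Zfp367 was not the highest control. The part of the mitosis markers in the rise of Zfp367 was not tested.

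Zfp39, a KRAB gene at chr11:58778979-58795051, was read at 76.6, 76.9 and 76.7 CPM in KANSL1-deficient libraries and at 41.1, 42.1 and 54.4 CPM in control libraries (log2 fold change 0.74 ± 0.16, SE, edgeR adjusted p = 0.0177). Its KANSL1-deficient libraries were nearly identical. The KRAB gene Zfp266 (chr9:20406364-20432713) averaged 289 ± 32.5 CPM in KANSL1-deficient and 195 ± 20.7 CPM in control libraries (log2 fold change 0.57, edgeR adjusted p = 0.0275). Zfp874b (chr13:67619632-67632377) averaged 23.6 ± 3.68 CPM in KANSL1-deficient and 13.4 ± 1.92 CPM in control libraries (log2 fold change 0.82, edgeR adjusted p = 0.0445). It shares 4.86% of its 100-base words with Zfp874a, so reads may be divided between the pair.

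Zfp260, whose product is known in mouse heart cells as a partner of GATA4, lies at chr7:29794202-29807047. It had 95.8, 92.1 and 83.6 CPM in KANSL1-deficient libraries and 67.0, 51.9 and 65.2 CPM in control libraries (log2 fold change 0.56 ± 0.15, SE, edgeR adjusted p = 0.0440). Zfp62 (chr11:49094119-49109643) had 112, 138 and 108 CPM in KANSL1-deficient and 78.0, 84.5 and 84.0 CPM in control libraries (log2 fold change 0.53 ± 0.14, edgeR adjusted p = 0.0421). The groups of both genes were apart, by a smaller ratio than those of Zfp367. Zfp62, Zfp260, Zfp266 and Zfp874b lost their call when libraries were scaled by their totals, which shifts the median of all tested genes by -0.15 on the log2 scale. Zfp62, Zfp260 and Zfp874b also lost it whichever library was left out.

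**Figure D1:**
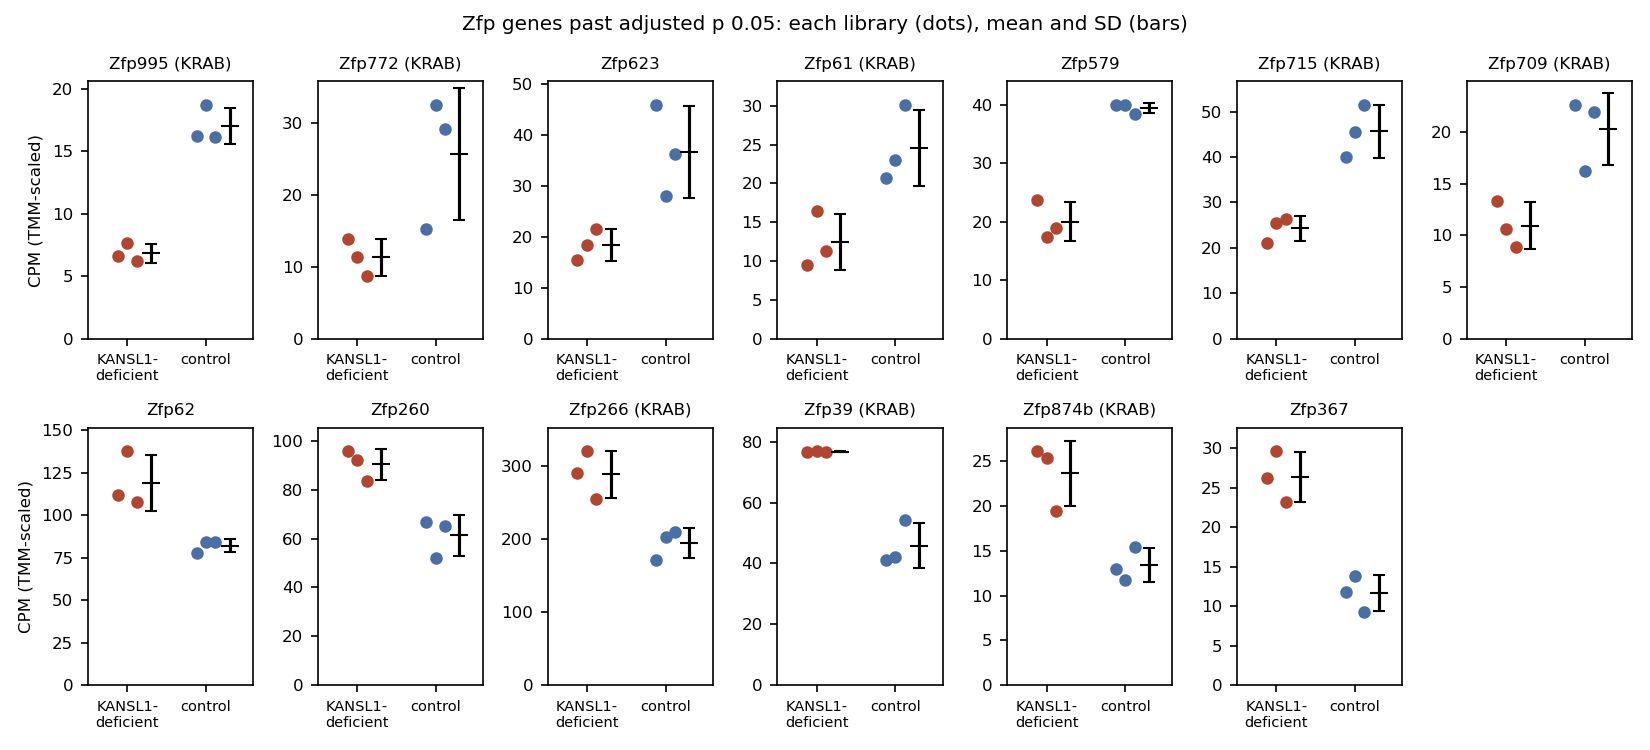
TMM-scaled CPM of the 13 Zfp genes at an adjusted p under 0.05, with a linear axis from 0 in each panel. Dots are the 3 KANSL1-deficient (left) and 3 control (right) libraries, bars are mean and SD, the upper row fell and the lower row rose. No panel has overlapping groups, and Zfp772 shows control replicate 1 at 15.2 CPM beside controls at 32.5 and 29.2 CPM.

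RefSeq promoter sequences of the GRCm38.p6 assembly, taken here as the 250 bases before the first listed start, were matched to 162 of the 195 Zfp genes. Of the 161 that also had a GENCODE transcript, 148 had the last 35 bases of a listed promoter inside one. Those bases lie downstream of the start, and any listed start of the gene counted. The 4 below belong to the genes with the most stable calls and to Zfp61, which holds the same kind of motif as Zfp367 but moved the other way. Capitals mark a motif match, and sequences read 5′ to 3′ on the gene's strand.
Zfp367, chr13:64153200-64153449, minus strand, higher: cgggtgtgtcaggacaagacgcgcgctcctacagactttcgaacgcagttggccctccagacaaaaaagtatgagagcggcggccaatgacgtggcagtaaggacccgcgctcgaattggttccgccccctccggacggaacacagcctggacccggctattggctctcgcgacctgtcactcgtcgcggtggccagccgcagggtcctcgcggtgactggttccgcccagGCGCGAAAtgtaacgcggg
Zfp61, chr7:24299550-24299799, minus strand, lower: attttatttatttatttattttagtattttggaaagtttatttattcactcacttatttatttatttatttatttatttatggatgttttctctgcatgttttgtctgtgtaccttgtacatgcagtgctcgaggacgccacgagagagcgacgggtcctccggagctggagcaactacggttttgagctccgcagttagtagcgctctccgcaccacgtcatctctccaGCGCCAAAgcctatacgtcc
Zfp579, chr7:4996102-4996351, minus strand, lower: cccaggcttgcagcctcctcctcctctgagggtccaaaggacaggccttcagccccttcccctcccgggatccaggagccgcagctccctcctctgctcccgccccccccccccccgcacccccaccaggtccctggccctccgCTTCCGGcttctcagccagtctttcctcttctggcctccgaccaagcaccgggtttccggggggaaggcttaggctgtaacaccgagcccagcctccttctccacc
Zfp995, chr17:21909927-21910176, minus strand, lower: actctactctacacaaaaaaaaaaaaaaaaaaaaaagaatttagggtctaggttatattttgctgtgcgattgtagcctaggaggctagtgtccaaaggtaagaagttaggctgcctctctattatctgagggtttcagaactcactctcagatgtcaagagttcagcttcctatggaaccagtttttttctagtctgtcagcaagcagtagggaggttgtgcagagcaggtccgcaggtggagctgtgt

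The Zfp367 window holds 29 CpG dinucleotides and the E2F-type match GCGCGAAA, and the Zfp61 window holds 13 CpG and GCGCCAAA. The Zfp579 window has 10 CpG and the ETS-type match CTTCCGG, while that of Zfp995 has 2 CpG and none of the motifs searched. Both strands were searched for the E2F words TTTGGCGC, TTTCCCGC, TTTGCCGC and TTTCGCGC, ETS as CCGGAAG and YY1 as AAGATGGCG, none of which lies within another, and for an NRF1 word made of GCGC, any base and TGCGC. E2F words were in 4.94% of the 162 Zfp promoters and 1.91% of all 27025 promoters, and the ETS word in 17.9% and 7.05%. For the YY1 word the shares were 0.617% of the Zfp promoters and 0.607% of all promoters. The Zfp promoters held a median of 12 CpG, against 6 over all promoters, and the part of CpG content in these shares was not tested. Among the genes that passed the test, 1 of 6 higher and 1 of 6 lower promoters held an E2F word. The NRF1 word was in 2.33% of KRAB, 13.2% of other Zfp and 3.86% of all promoters. A match describes letters in this window and is not a binding site.

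The deposited annotation gives 1 domain name per gene, and it was KRAB for 100 of the 195 Zfp genes. The other 95 include 40 listed under a C2H2 finger family and 8 under SCAN, such as Zfp445, whose product also has a KRAB domain. Among the KRAB genes 3 rose and 5 fell (8.00%), and among the others 3 rose and 2 fell (5.26%). Both shares were near the 6.76% of all tested genes and under the 10.6% of protein-coding genes of at least 10 CPM. The median log2 fold change was -0.24 over KRAB genes and 0.02 over the others, and -0.02 over all 15353 tested genes. Of the KRAB genes 68 had a negative and 32 a positive log2 fold change, whereas the others divided into 47 negative and 48 positive.

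The direction in which the groups were apart was counted for each class. Over all tested genes the KANSL1-deficient libraries lay wholly below the control libraries for 14.0% and wholly above for 14.6%. KRAB genes lay below for 26 of 100 and above for 4, and the other Zfp genes below for 9 of 95 and above for 18. Among protein-coding genes of at least 10 CPM the groups were apart for 36.4%, and the share below was 16.2%. Over all 195 Zfp genes they were apart for 57 (29.2%), against 28.5% of all tested genes. These shares describe the lists, and the difference between the classes was not tested.

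The KRAB median was set against the control mean library by library. The KANSL1-deficient libraries had class medians of -0.16, -0.12 and -0.33 on the log2 scale, and the control libraries -0.11, -0.03 and 0.13. The groups were apart by a narrow gap, between KANSL1-deficient replicate 2 and control replicate 1, and the range within each group was wider than the distance between their means. The other Zfp genes had medians of -0.01, 0.06 and -0.01 in KANSL1-deficient libraries and 0.01, 0.03 and 0.01 in control libraries, which overlap.

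**Figure D2:**
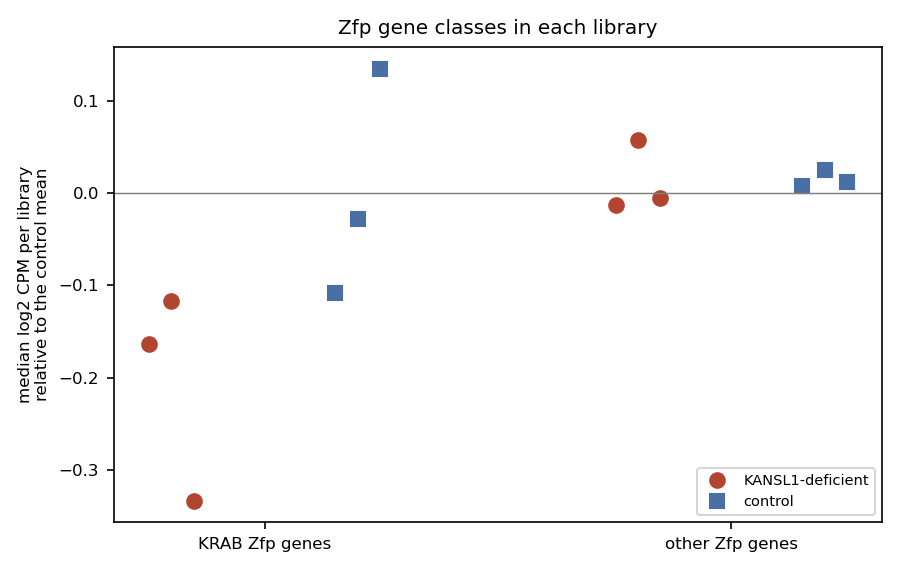
Median log2 CPM of each Zfp class in each library relative to the control mean. Red circles are KANSL1-deficient and blue squares control libraries. KRAB genes lie between -0.33 and -0.12 in KANSL1-deficient and between -0.11 and 0.13 in control libraries, while the other Zfp genes stay within 0.06 of 0.

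Abundance and base composition differ between the classes. The median FPKM was 5.44 for KRAB genes, 8.36 for other Zfp genes and 10.8 for protein-coding genes of at least 10 CPM, and the median transcript GC content was 41.2%, 48.4% and 49.0%. Across all protein-coding genes the log2 fold change itself moved with abundance. Its median was -0.17 at 10 to 20 CPM, -0.09 at 20 to 40 CPM, -0.01 at 40 to 80 CPM and 0.15 from 80 CPM up. KRAB genes followed the same order at lower values, with medians of -0.35, -0.24, -0.08 and 0.08 in those bands over 40, 30, 18 and 12 genes. The other Zfp genes had -0.18, -0.05, 0.06 and 0.12 over 15, 24, 24 and 32 genes. With the abundance trend of each library removed the KRAB median was -0.16, and with its GC trend removed -0.23.

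**Figure D3:**
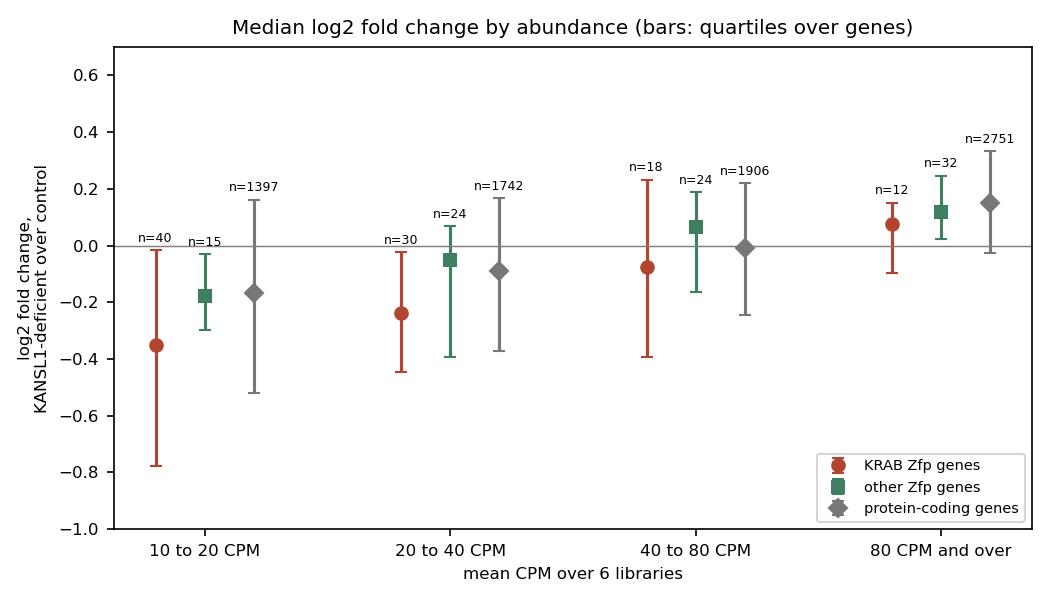
Median log2 fold change, KANSL1-deficient over control, by band of mean CPM, with quartiles over genes as bars. The lowest band has medians of -0.35 for KRAB, -0.18 for other Zfp and -0.17 for all protein-coding genes, and the top band 0.08, 0.12 and 0.15.

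**Figure D4:**
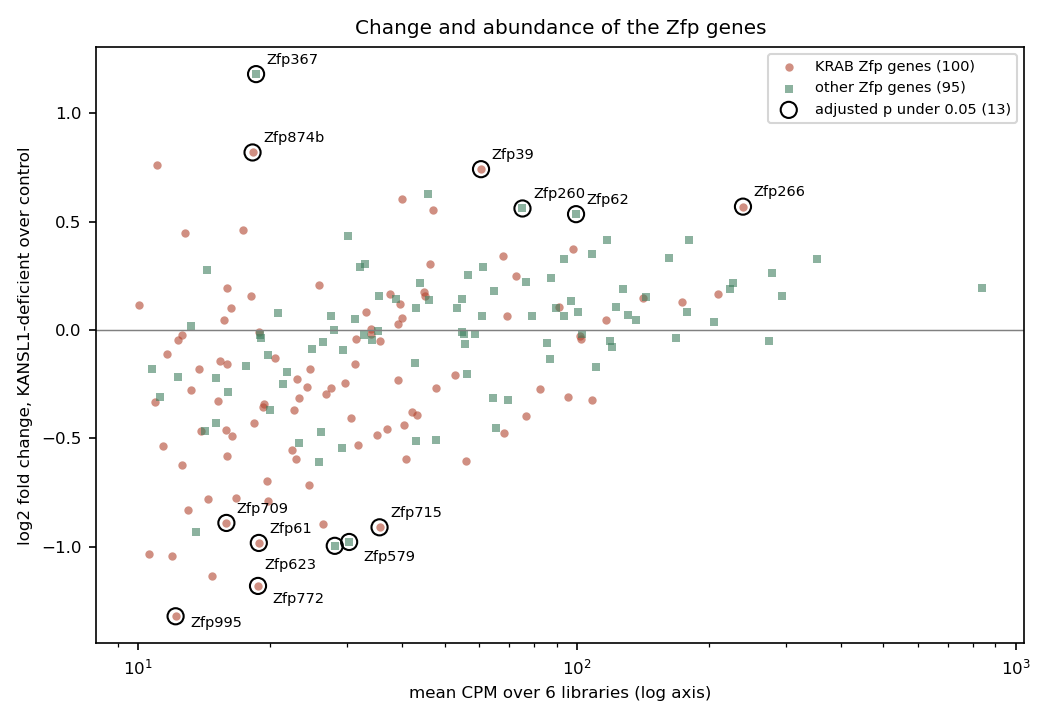
Log2 fold change of each of the 195 Zfp genes against its mean CPM on a log axis. KRAB genes are circles and other Zfp genes squares, and rings mark the 13 genes at an adjusted p under 0.05. The genes of largest change, between -1.32 and 1.18, lie at the low end of the axis.

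The Zfp genes spanned 10.03 to 839 CPM, with quartiles at 18.99, 35.04 and 71.3 CPM, and summed to 1.19% of all counts. Over the whole group the median log2 fold change was -0.05 with quartiles of -0.36 and 0.14. Changes were small for most: 6 genes differed by at least 2-fold and 29 by at least 1.5-fold. The median coefficient of variation among replicates was 14.9% in KANSL1-deficient and 15.9% in control libraries. At the edge of the level rule, Zfp60 at 10.03 and Zfp605 at 10.6 CPM were just inside, and Zfp358 at 9.996 and Zfp273 at 9.58 CPM just outside. A total of 9 genes would have fallen under 10 CPM by the KANSL1-deficient mean alone and 2 by the control mean alone. Among the 9 were Zfp995, Zfp940, Zfp850, Zfp605 and Zfp277, which met the rule through the control libraries. Those named lie in the band of 10 to 20 CPM, whose medians thus include genes admitted by their control level. Zfp genes under 10 CPM that could be tested numbered 123, of which 0 rose and 4 fell (3.25%) by edgeR with a median of -0.51. At an unadjusted p under 0.05, which 22.6% of all tested genes reached, those counts were 3 and 28. By DESeq2 they were 2 and 10, where 7.1% of all tested genes were higher and 6.19% lower, and by limma-voom 1 and 4, where 4.65% were higher and 3.26% lower. Zbtb genes, which join zinc fingers to a BTB domain, numbered 26 at this level, of which 1 rose and 1 fell by edgeR (7.69%, near the 6.76% of all tested genes).

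Zfp36, which encodes the mRNA decay factor tristetraprolin, had the highest level of the group per length. It had 245 ± 49.2 FPKM in KANSL1-deficient and 238 ± 31.5 FPKM in control libraries (SD, n = 3 each). In CPM it was read at 1119, 848 and 734 in KANSL1-deficient replicates 1 to 3, against 657, 843 and 860 in control replicates 1 to 3. The groups overlapped, and the log2 fold change of 0.19 did not pass (edgeR adjusted p = 0.543). Its relatives Zfp36l1 and Zfp36l2, which hold back cell division in early mouse thymocytes, did not pass, at 0.22 and -0.04 on the log2 scale. Zfp36l1 was read at 77.8 ± 16.2 FPKM in KANSL1-deficient and 74.3 ± 4.64 FPKM in control libraries.

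Zfp36 proteins bring the CCR4-NOT deadenylase to their targets, and 0 of 23 genes listed for that machinery passed edgeR's test. At an unadjusted p under 0.05 by edgeR, which 22.6% of all tested genes reached, the count was 6. By DESeq2 and by limma-voom it was 2. Over all tested genes DESeq2 called 13.3%, and limma-voom 4.65% higher and 3.26% lower. Of 8 tested transcripts described as Zfp36 family targets 2 were higher by edgeR, Ccnd3 and Myc, where 3.85% of all tested genes were. Ccnd3, a G1 cyclin, averaged 1610 ± 86.0 CPM in KANSL1-deficient and 965 ± 42.9 CPM in control libraries (log2 fold change 0.74, edgeR adjusted p = 0.00444). Myc, a growth regulator, had 51.5, 41.4 and 40.9 CPM in KANSL1-deficient and 19.3, 30.9 and 23.2 CPM in control libraries (log2 fold change 0.87, edgeR adjusted p = 0.0290). Myc passed in 1 of 6 fits that leave out a library and Ccnd3 in 6. Both also serve the cell cycle, and the part of the mitosis markers in these values was not tested.

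Among 8 Zfp genes listed as promoter factors, 1 passed by edgeR, Zfp260, and 2 by DESeq2 and by limma-voom, Zfp260 and Zfp143. Over all tested genes 3.85% were higher by edgeR, 7.1% by DESeq2 and 4.65% by limma-voom. Zfp143 binds promoters of small nuclear RNA and many protein-coding genes. It was read at 59.3, 51.4 and 58.4 CPM in KANSL1-deficient and at 28.3, 38.5 and 42.7 CPM in control libraries (log2 fold change 0.63, adjusted p = 0.0588 by edgeR, 0.0124 by DESeq2 and 0.0470 by limma-voom). The groups did not overlap. The others were near 0 on the log2 scale, with 0.04 for Zfp148, 0.18 for Zfp281, 0.06 for Zfp384, 0.16 for Zfp410, -0.05 for Zfp263 and -0.02 for Zfp131. Zfp410, which in mouse cells drives the NuRD gene Chd4, had 312 ± 44.1 CPM in KANSL1-deficient and 279 ± 31.7 CPM in control libraries. The abundant genes Zfp422 and Zfp280d did not pass either, at 0.33 and 0.26 on the log2 scale.

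DESeq2 called 13.3% of all tested genes, and 22.6% of them had an unadjusted p under 0.05 by edgeR. Of 6 listed chromatin and SUMO cofactors, 0 passed edgeR's test and 0 limma-voom, while 1 passed by DESeq2 and had an unadjusted p under 0.05. That gene was Zfp592, which acts with ZMYND8 in human cells. It had 129, 139 and 136 CPM in KANSL1-deficient against 109, 99.1 and 94.4 CPM in control libraries (log2 fold change 0.42, adjusted p = 0.0676 by edgeR and 0.0176 by DESeq2). Its partner Zfp687 had a log2 fold change of -0.01, Zfp644, which recruits H3K9 methyltransferases, -0.05, Zfp827, a telomere factor in human cells, -0.02 and the SUMO ligase Zfp451 0.10. Zfp335, which mouse T cells need to mature, had 0.43 with a standard error of 0.21. Zfp335 overlaps Pcif1 on the opposite strand, which was read at 152 CPM, and the notes do not state strand-aware counting, so reads of the pair may be mixed.

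Of 9 genes listed for RNA and ribosome functions, 0 passed edgeR's test and 0 limma-voom, and 1 passed by DESeq2. At an unadjusted p under 0.05 by edgeR, which 22.6% of all tested genes reached, the count was 2. Zfp277, whose human counterpart binds a protein of the small ribosomal subunit, had 7.92, 9.19 and 10.4 CPM in KANSL1-deficient and 20.02, 11.8 and 20.7 CPM in control libraries (log2 fold change -0.93, adjusted p = 0.0582 by edgeR and 0.0130 by DESeq2). Zfp638 had a log2 fold change of 0.35. Zfp598, the ubiquitin ligase that senses collided ribosomes, had -0.22, and the ribosome maturation factor Zfp622 -0.02. Zfp706, Zfp326, Zfp106, Zfp346 and Zfp830 lay between -0.32 and 0.22.

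Of the 3 genes listed for spindle and cell cycle, Zfp367 rose by edgeR. Zfp830 lay on the other side of 0, with a log2 fold change of -0.32 (edgeR adjusted p = 0.273). Zfp207, which in human cells loads the checkpoint protein BUB3 on kinetochores, had 180, 239 and 202 CPM in KANSL1-deficient and 175, 140 and 150 CPM in control libraries (log2 fold change 0.42, adjusted p = 0.0997 by edgeR and 0.0424 by DESeq2). Zfp445 and Zfp809 were the listed genes for imprints and retroelements. Zfp445, which protects imprints, had a log2 fold change of -0.13, and Zfp809, which silences retroviral DNA in mouse embryonic cells, -0.24. Neither had an unadjusted p under 0.05.

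**Figure D5:**
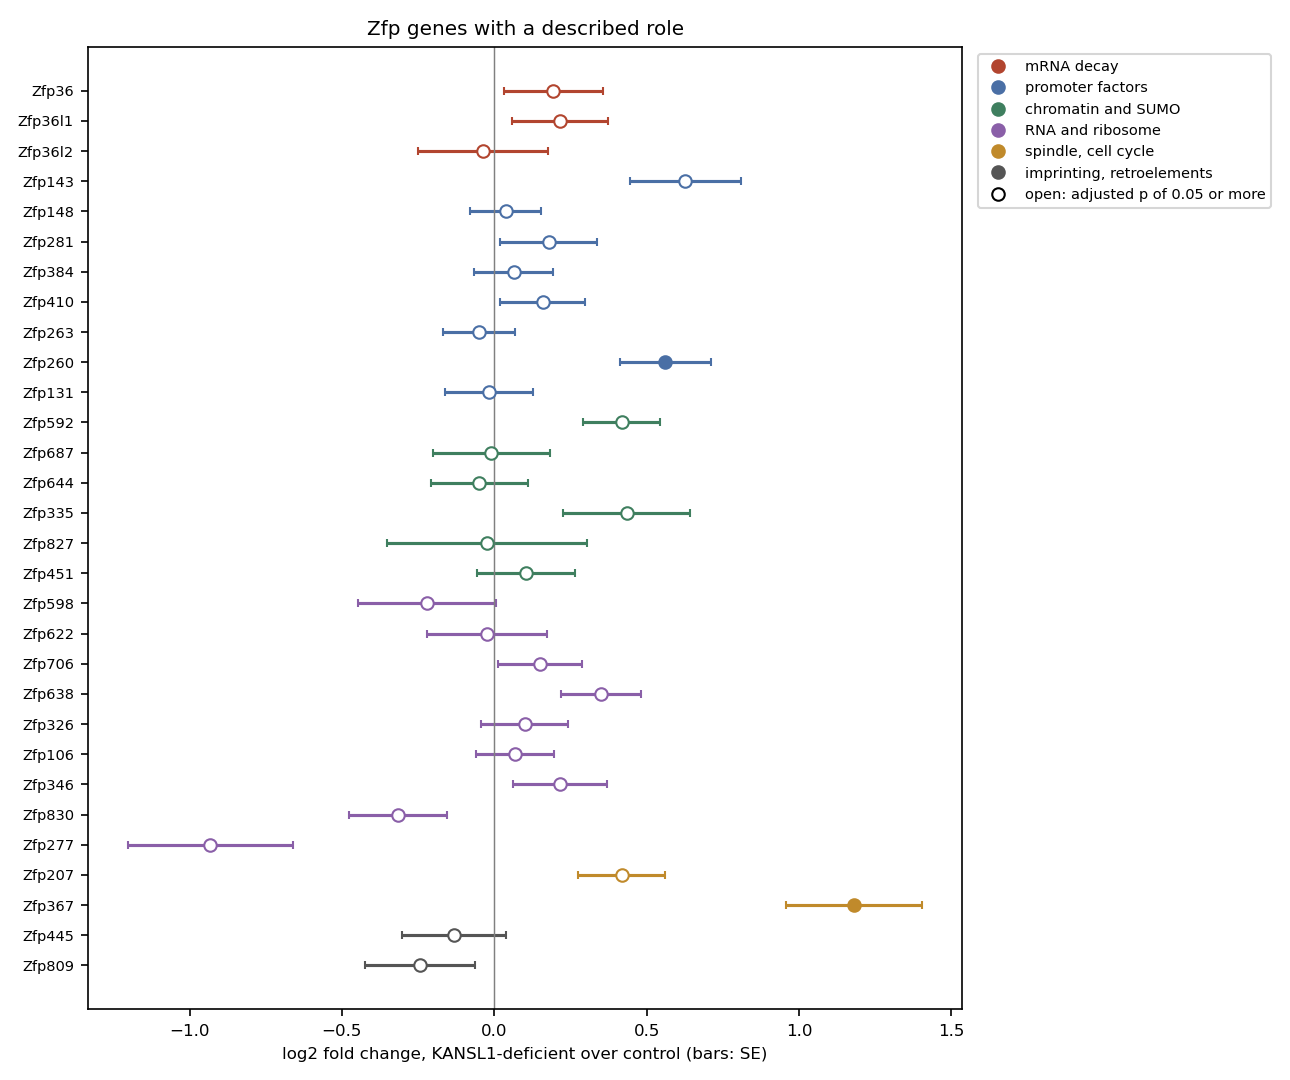
Log2 fold change with SE, KANSL1-deficient over control, of the Zfp genes on the role lists, coloured by role. Filled points passed the adjusted p of 0.05, which were Zfp260 at 0.56 and Zfp367 at 1.18, and Zfp277 lies farthest to the left at -0.93.

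The corepressor genes that serve KRAB proteins were examined beside them. Trim28, the scaffold that KRAB domains bind, had 108, 112 and 131 CPM in KANSL1-deficient and 95.1, 112 and 90.6 CPM in control libraries (log2 fold change 0.23, edgeR adjusted p = 0.376). Setdb1 had a log2 fold change of 0.15 (edgeR adjusted p = 0.647). Of 17 listed corepressor genes 4 rose and 0 fell by edgeR. The share called by edgeR was 23.5%, against 6.76% of all tested genes and 10.6% of protein-coding genes of at least 10 CPM. By DESeq2 7 rose and 0 fell, where 7.1% of all tested genes were higher. At an unadjusted p under 0.05 by edgeR, which 22.6% of all tested genes reached, 8 were higher and 0 lower. By limma-voom 5 rose and 0 fell, where 4.65% of all tested genes were higher. Atf7ip, which stabilises SETDB1, averaged 353 ± 37.6 CPM in KANSL1-deficient and 257 ± 10.8 CPM in control libraries (log2 fold change 0.46, edgeR adjusted p = 0.0429). Its call was lost whichever library was left out.

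The other 3 were Cbx5, a heterochromatin protein, and Uhrf1 and Dnmt1, which maintain DNA methylation after replication. Uhrf1 averaged 176 ± 31.5 CPM in KANSL1-deficient and 79.4 ± 30.5 CPM in control libraries (log2 fold change 1.15, edgeR adjusted p = 0.0159). Cbx5 and Dnmt1 had log2 fold changes of 1.04 and 0.82. With 1 library left out, Cbx5 passed in 3 of 6 fits and Uhrf1 and Dnmt1 in 2 of 6. In all 3 genes control replicate 1 was the highest of the control libraries, as it was for the summed mitosis markers. Among KANSL1-deficient libraries the mitosis sum and Uhrf1 were highest in replicate 3, but Cbx5 and Dnmt1 in replicate 2. The part of the mitosis markers in these changes was not tested. Of 17 NuRD and CoREST genes 1 rose (5.88% called, near the 6.76% of all tested genes), Rbbp7 (log2 fold change 0.61, edgeR adjusted p = 0.0314), which passed in 1 of 6 such fits. Of 14 ribosome quality genes 1 fell (7.14%, also near that share), Ascc2, with 62.1 ± 8.32 CPM in KANSL1-deficient and 91.4 ± 3.38 CPM in control libraries (edgeR adjusted p = 0.0412). Ascc2 lost its call whichever library was left out.

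Of the 195 Zfp genes, 71 lay in clusters of at least 4 with neighbours within 500 kb, and 57 of those were KRAB genes. On chr13:67461062-67903347, 11 Zfp genes had a median log2 fold change of -0.33. For 5 of them, Zfp729b, Zfp729a, Zfp738, Zfp65 and Zfp85, the KANSL1-deficient libraries lay wholly below the control libraries, as they did for 14.0% of all tested genes and 16.2% of protein-coding genes of at least 10 CPM. None of these 5 passed by edgeR or limma-voom, whereas Zfp729b and Zfp85 passed by DESeq2 (adjusted p = 0.0377 and 0.0429), and Zfp874b in the same cluster rose. Zfp729b shares 39.8% of its 100-base words with Gm49345, so its counts are uncertain.

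The 12 genes on chr17:21229165-23783212, which include Zfp995, had a median of -0.07, and the 10 genes on chr17:32984470-33613615 one of -0.13. On chromosome 7, the 8 genes around Zfp260 on chr7:29467977-29869175 had a median of -0.33 although Zfp260 itself rose. On chr9:20256432-20516705 the median over 5 genes was 0.16, with Zfp266 higher, Zfp426 at 0.60 and Zfp560 at -0.78. Clusters thus held genes of both signs. Chromosome 7 held 39 of the Zfp genes, 1 of which rose and 4 of which fell by edgeR, with a median of -0.27. That is 12.8%, against 6.76% of all tested genes and 10.6% of protein-coding genes of at least 10 CPM. Over all 195, 72 overlap another listed gene and 34 of 194 share at least 1% of their 100-base words with another gene.

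In the authors' deposited table, 32 of the 195 Zfp genes had an adjusted p under 0.05, of which 10 were higher and 22 lower, and the share over all genes with such a value there was 14.9%. All 13 genes named above as passing were among them. The authors' deposited table marks 6 Zfp genes as significant (3.08%), against 640 of all its 29626 genes (2.16%). Only 13543 of all its genes had an adjusted p, so these shares rest on unlike sets of genes. Among Zfp genes the mark is on Zfp367, with a log2 fold change of 1.18. On the lower side it is on Zfp995 at -1.32, Zfp772 at -1.18, Zfp940 at -1.14, Zfp850 at -1.04 and Zfp605 at -1.04. By edgeR Zfp940, Zfp850 and Zfp605 did not pass, with adjusted p-values of 0.0635, 0.0755 and 0.118. Zfp605 had 5.36, 11.6 and 3.55 CPM in KANSL1-deficient and 14.6, 14.8 and 12.6 CPM in control libraries, with 1 KANSL1-deficient library near the controls.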

How the data were processed

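RNA was sequenced from sorted DP thymocytes of 3 KANSL1-deficient and 3 control mice, with a kit that selects polyadenylated RNA, per the labels' protocols. STAR and featureCounts on GRCm39, then DESeq2, are named per the submitters' processing notes, with versions and strand settings not given in the sources used here. From these steps the authors deposited whole-number counts per gene, FPKM values, and their comparison as a log2 fold change with adjusted p-values. Per the file headers, the comparison also lists a mean normalized signal and a fold ratio, which were not used here.

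Groups and replicate numbers came from the labels. Counts were tested with edgeR 4.0.16 in R 4.3.3 (quasi-likelihood, TMM, filter by group with minimum count 10 and total 15, robust shrinkage, Benjamini-Hochberg over 15353 genes at 0.05). The SE is the log2 fold change over the square root of F. Alternatives used DESeq2 1.42.0, limma 3.58.1 on log2(FPKM + 1 or 0.1) and voom, other scalings and filters, a replicate block, and each library left out. Removal of the GC or length trend, and the set without overlapping or near-identical genes, were chosen after seeing the data. Transcript GC content and shared 100-base words came from GENCODE M21 transcripts. KRAB genes are those with that name in the deposited domain column, in place of the planned protein sequences. The test was checked on simulated counts, with changes set in genes of at least 10 CPM. It recovered 28.4% of 1.5-fold, 74.6% of 2-fold and 100% of 4-fold changes, with 6 false calls among 14535 unchanged genes. Changes of 1.5-fold were thus mostly missed.

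The Zfp genes and all gene lists were chosen with earlier results of these data known. Genes named were Kansl1, Zfp genes past the threshold, the 6 most abundant, those on role lists, the 2 on each side of 10 CPM, and up to 4 per partner list. Cluster genes, the single markers named, Zfp940, Zfp850, Zfpl1, Trim28 and Setdb1 were chosen after their values were seen. The groups were compared unpaired, and p-values measure the spread among 3 animals per group. Some marker genes are not reported here.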

Additional observations from a re-analysis of the deposited data

How the results depend on the processing

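With main counts of 6 higher and 7 lower Zfp genes, 1038 of all genes, 8 KRAB, 5 other, 4 low Zfp, 2 Zbtb, 2 role list and 8 partner list genes, DESeq2 gave 10, 22, 2040, 21, 11, 12, 4, 6 and 16. Replicate number as a block gave 1, 3, 406, 2, 2, 2, 1, 1 and 2. Same-numbered libraries did not deviate together over all tested genes (correlations of -0.0486, -0.0236 and -0.0955). With 3 libraries per group this cannot exclude a pairing, and the labels do not state one. Without a filter, 18 Zfp genes were lower, with 1729 of all, 19 KRAB, 13 low Zfp, 4 Zbtb and 4 role list genes. A filter of 5 CPM in 3 libraries gave 17 lower, 1546 of all, 18 KRAB, 4 Zbtb, 4 role list and 13 partner list genes. Library totals gave 2 higher, 22 lower, 1326 of all, 17 KRAB and 4 Zbtb genes. The medians were then -0.20 for Zfp, -0.39 for KRAB and -0.14 for other Zfp genes. Limma on log2(FPKM + 0.1) gave 1 higher, 880 of all, 4 KRAB, 3 other, 1 role list and 3 partner list genes. Its medians in the same order were -0.20, -0.37 and -0.12. On log2(FPKM + 1) limma gave 1 higher, 953 of all, 1 role list and 4 partner list genes. The medians were -0.17 for Zfp and -0.11 for other Zfp genes. Without the abundance trend 4 Zfp genes were lower, and 952 of all, 4 KRAB and 8 low Zfp genes passed. Without the length trend 11 Zfp genes were lower, and 1463 of all, 8 low Zfp and 17 partner list genes passed. Without the GC trend 8 low Zfp genes and 1283 of all genes passed. Among Zfp genes of at least 20 CPM 3 were lower, and among those without overlapping or near-identical genes 3 were higher. The cause was not tested. The median over KRAB genes was negative under each alternative run.

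Leaving out 1 library at a time gave 0 to 3 higher and 2 to 8 lower Zfp genes, 283 to 811 of all genes, 1 to 8 KRAB, 0 to 4 other, 2 to 6 low Zfp, 1 to 2 Zbtb, 0 to 2 role list and 1 to 5 partner list genes. Medians ran from -0.09 to -0.04 for Zfp, -0.26 to -0.17 for KRAB and 0.02 to 0.05 for other Zfp genes, and the log2 fold change of Kansl1 from -0.43 to -0.24.

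Genes that changed sign were near 0 and never past the threshold. Library totals gave log2 fold changes of -0.043 for Zfp451, -0.11 for Zfp148, -0.087 for Zfp384, -0.0011 for Zfp706, -0.050 for Zfp326, -0.080 for Zfp106, -0.042 for Zfp60 and -0.14 for Zfp358. For the same genes except Zfp60, in that order, log2(FPKM + 0.1) gave -0.032, -0.11, -0.086, -0.0022, -0.050, -0.078 and -0.14, and log2(FPKM + 1) gave -0.029, -0.11, -0.081, -0.0021, -0.044, -0.073 and -0.12. Without the abundance trend the values were -0.10 for Zfp36, -0.060 for Zfp410, 0.014 for Zfp687, -0.15 for Zfp148, 0.057 for Zfp622 and -0.050 for Zfp106. Without the length trend they were 0.036 for Zfp36l2, -0.011 for Zfp148 and 0.013 for Zfp131. Zfp36l2 and Zfp687 had 0.069 and 0.063 without the GC trend, 0.016 and 0.0075 with the replicate block and 0.018 and 0.011 by limma-voom. The filter of 5 CPM gave -0.0098 for Zfp358. Leaving out 1 library gave ranges of -0.11 to 0.028 for Zfp263, -0.27 to 0.25 for Zfp36l2, -0.15 to 0.19 for Zfp687, -0.21 to 0.078 for Zfp644, -0.52 to 0.25 for Zfp827, -0.057 to 0.20 for Zfp451 and -0.016 to 0.086 for Zfp148. The ranges were -0.078 to 0.030 for Zfp131, -0.14 to 0.16 for Zfp622, -0.0065 to 0.11 for Zfp106, -0.30 to 0.014 for Zfp445, -0.19 to 0.61 for Zfp60 and -0.14 to 0.11 for Zfp358. A Zfp gene that missed the threshold at 3 libraries per group is not shown to be alike in both groups.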
